A study of Mus musculus with 8 samples.

Results

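Replication-dependent histone genes encode the core histones H2A, H2B, H3 and H4 and the linker histone H1 that package newly made DNA. In mouse peritoneal macrophages they were followed through culture with histidine-rich glycoprotein (HRG), a plasma protein. The genes were found by the older symbols beginning with Hist1h, Hist2h, Hist3h or Hist4h that RefSeq lists beside the current ones. A row of the array's value table was a member if at least 1 gene it names carries such a symbol, and 58 of the 28853 rows qualified. Together they name 69 of the 70 such genes. The gene that no row names is H2ac14.

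By type, 5 rows belong to H1, 6 to H2A, 18 to H2B, 13 to H3 and 13 to H4, and 3 name genes of more than 1 type. Genes of 1 type have nearly alike coding sequences. Of the 58 rows, 27 carry several symbols and 31 carry 1. Of the former, 10 rows list the same 12 H3 symbols, 5 list the same 11 H4 symbols, 4 list the same 15 H2B symbols and 3 list the same 14 H2B symbols. Among these, 2 pairs of rows hold identical values. A row with several symbols reports the genes it names together, and the share of each cannot be read from it. Counts are therefore given in rows, and also after rows with the same symbols were averaged, which left 40 distinct sets of symbols.

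The cells came from a pool of 10 wild-type C57/Bl6 mice and were obtained by peritoneal lavage. After a night in RPMI medium with fetal calf serum they stayed untreated (Basal) or received 1 µg/ml recombinant HRG, for 6 h or 24 h. Each of the 4 groups (Basal 6 h, HRG 6 h, Basal 24 h and HRG 24 h) has 2 arrays. The duplicates share a pool of animals, so p-values measure the spread between arrays, which may be technical. There is no sample taken before treatment, so a difference between 24 h and 6 h describes time in culture and not a change from the animal. Expression is given as log2 values, on which a difference of 1 is a doubling. A row passed the test when its limma p, adjusted by the Benjamini-Hochberg method over all rows of the table, was under 0.05.

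The 8 arrays had medians between 7.18 and 7.29. The defining macrophage gene Adgre1 lay between 13.38 and 13.63 in every array, and the mean of 10 macrophage markers between 11.85 and 12.23. That mean was highest in the HRG 24 h arrays (12.23 and 12.20), against 11.94 and 11.91 in Basal 24 h. Markers of other peritoneal cells were present too. The mean of 7 B cell markers ranged from 7.75 to 8.67 and that of 7 mast cell markers from 8.86 to 9.66, so the RNA was not that of macrophages alone. Of the histone rows, 6 lay among the dimmest 30% of all rows and 52 above them.

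Replication-dependent histone mRNAs are made in bulk when a cell copies its DNA and are removed when replication stops. They end in a stem-loop instead of a poly(A) tail. The stem-loop binding protein SLBP holds that end through processing, export and translation, and NPAT, bound at the histone gene clusters, switches the genes on at the start of S phase. Most of the genes lie in clusters in which the 5 types are interspersed. Resident peritoneal macrophages divide slowly, and their number is held up by local renewal.

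Promoter sequences are shown for 4 genes whose own row passed the test in at least 1 comparison, 1 for each of H2A, H2B, H4 and H1. They come from RefSeq with build GRCm38.p6 and are the 250 bases before the annotated start, 5′ to 3′ on the gene's strand. Capitals mark matches on either strand to 3 motifs that occur in promoters of these genes: the CCAAT box, a TATA box spelled TATAAA, and the octamer, spelled ATTTGCAT. A CCAAT box on the other strand reads as ATTGG. H2ac15 (chr13:21753913-21754075, minus strand) is cut to 163 bases because the bases before them belong to another annotated gene. H2bc18 is at chr3:96269450-96269699, H4c4 at chr13:23581318-23581567 and H1f2 at chr13:23738557-23738806, all on the plus strand.
H2ac15: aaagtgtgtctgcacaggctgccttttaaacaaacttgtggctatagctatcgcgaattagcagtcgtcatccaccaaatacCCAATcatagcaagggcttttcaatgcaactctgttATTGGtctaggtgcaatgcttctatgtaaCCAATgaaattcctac
H2bc18: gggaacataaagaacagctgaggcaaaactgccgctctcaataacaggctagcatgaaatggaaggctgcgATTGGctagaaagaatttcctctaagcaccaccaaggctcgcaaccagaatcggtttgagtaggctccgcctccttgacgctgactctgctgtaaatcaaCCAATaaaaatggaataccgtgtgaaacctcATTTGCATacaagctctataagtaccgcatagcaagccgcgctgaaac
H4c4: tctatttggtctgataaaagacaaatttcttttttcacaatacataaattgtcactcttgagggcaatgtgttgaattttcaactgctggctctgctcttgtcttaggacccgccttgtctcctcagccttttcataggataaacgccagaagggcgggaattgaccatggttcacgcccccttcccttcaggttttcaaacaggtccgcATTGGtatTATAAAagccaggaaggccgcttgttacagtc
H1f2: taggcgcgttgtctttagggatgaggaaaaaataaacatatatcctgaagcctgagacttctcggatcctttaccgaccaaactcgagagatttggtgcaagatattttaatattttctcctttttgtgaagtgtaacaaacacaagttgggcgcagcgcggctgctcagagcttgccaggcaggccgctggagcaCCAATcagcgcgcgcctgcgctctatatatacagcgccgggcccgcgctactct
These 4 differ in the elements they hold. H2ac15 has 3 matches to CCAAT in the window. H2bc18 has 2 matches to CCAAT and the octamer ATTTGCAT, H4c4 has TATAAA beside a CCAAT match on the other strand, and H1f2 has 1 CCAAT match. Among 63 RefSeq promoter entries of 62 histone genes, 82.5% held CCAAT, against 33.8% of all 32851 entries. These counts used the full 250 bases before each start, not cut where another gene begins. A site between neighbouring genes can therefore be counted for each. CCAAT was in all 6 H1, all 18 H2A and all 17 H2B entries, in 8 of 10 H3 entries and in 3 of 12 H4 entries. TATAAA was in 46% of histone entries and 12.4% of all. ATTTGCAT, the octamer that the factor encoded by Pou2f1 binds, was in 7 of the 18 H2A and 7 of the 17 H2B entries, in no H1, H3 or H4 entry, and in 1.6% of all entries. A match is a run of letters in a window and shows no binding, and a window without a match says nothing about the factor.

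In untreated cells histone transcripts fell with time in culture. Of the 58 rows, 30 were lower at 24 h than at 6 h, none was higher, and 28 did not pass the test. Among all rows, 4.22% were lower and 2.53% higher. The median difference of the histone rows was -0.41, against 0.03 for all rows. The values of both 24 h arrays lay below those of both 6 h arrays in 51 of 58 histone rows, and in 20.4% of all rows. In bulk RNA, fewer cells that make histone mRNA and less histone mRNA per cell cannot be told apart.

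Most of the rows that fell were H2B and H4: 14 of 18 H2B rows and 9 of 13 H4 rows passed, with medians of -0.48 and -0.46. So did 3 of 6 H2A rows, 1 of 5 H1 rows, 1 of 13 H3 rows and 2 of the 3 rows that mix types. With rows of the same symbols averaged, 21 of 40 sets were lower, among them 9 of 13 H2B and 5 of 9 H4 sets, while 4.15% of that table's rows were lower.

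H2bc18, an H2B gene of the Hist2 cluster, read 8.10 and 8.07 in the Basal 6 h arrays and 7.38 and 7.20 in the Basal 24 h arrays. Its groups did not overlap, and it fell by 0.80 on the log2 scale (SE 0.11, 1.74-fold, adjusted p = 0.0022). H2bc8, also H2B, read 8.83 and 8.63 at 6 h and 7.94 and 7.95 at 24 h, and fell by 0.79 (SE 0.11, adjusted p = 0.0029). These 2 were the largest H2B differences. H2bc3 fell by 0.59 (SE 0.13, adjusted p = 0.023) and H2bc4 by 0.56 (SE 0.13, adjusted p = 0.032). The 7 rows that name 14 or 15 H2B genes at once all fell, by 0.45 to 0.51. H2bu2 of the Hist3 cluster had a difference of -0.04 (adjusted p = 0.88), and H2bu1-ps, H2bc1 and H2bc22 did not pass either.

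H4c4, whose promoter holds TATAAA, read 12.86 and 12.80 at 6 h and 12.13 and 12.09 at 24 h. The gap between the groups is many times the gap within either, and the fall was 0.72 (SE 0.11, 1.65-fold, adjusted p = 0.0038). The 5 rows with the same 11 H4 symbols fell by 0.45 to 0.53, with adjusted p between 0.0093 and 0.02. H4c6 fell by 0.59 (SE 0.14, adjusted p = 0.033) and H4c9 by 0.48 (SE 0.09, adjusted p = 0.013). H4f16, the gene of the older Hist4 name, had a difference of -0.26 that did not pass (adjusted p = 0.18).

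Among H2A rows, H2aw read 11.13 and 11.12 at 6 h and 10.38 and 10.49 at 24 h. It fell by 0.69 (SE 0.09, 1.62-fold), with the smallest adjusted p of the histone rows, 0.0021. H2ac15 fell by 0.46 (SE 0.10, adjusted p = 0.022). The other H2A row to pass names H2aw again, together with Trim17, which is not a histone gene. It fell by 0.39 (SE 0.09, adjusted p = 0.027) and adds no further histone gene. Of the linker histones, H1f2 read 11.77 and 11.64 at 6 h and 10.98 and 11.28 at 24 h, a fall of 0.57 (SE 0.12, adjusted p = 0.02). H1f1, H1f3, H1f5 and H1f6 did not pass, and H1f6 was the only histone row with a positive difference, 0.10 (adjusted p = 0.82).

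The H3 rows behaved unlike H2B and H4 rows in size, though that contrast between types was not itself tested. The 10 rows with 12 H3 symbols had differences between -0.14 and -0.27, and none passed (adjusted p between 0.16 and 0.56). Averaged, they read 11.20 and 11.27 at 6 h and 11.16 and 10.95 at 24 h, so both 24 h arrays were lower but 1 only slightly. H3c15 was the only H3 row to pass. Its Basal 6 h arrays read 7.27 and 6.37, the widest gap among the rows named here, and its Basal 24 h arrays 5.49 and 5.91. The fall of 1.12 (SE 0.25, adjusted p = 0.027) is the largest of the 58, and its row is 1 of the 6 dim ones. Without replicate 1 of Basal 6 h it was 0.67 and did not pass, nor did it pass without Basal 24 h replicate 1 or either HRG 24 h array.

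The number of rows that passed in untreated cells depended on single arrays. It was 6 without Basal 6 h replicate 1, 18 without replicate 2, 9 without Basal 24 h replicate 1 and 12 without replicate 2. The median stayed between -0.44 and -0.36 in every fit that left out 1 array. H2bc18, H2bc8, H4c4 and H2aw passed in all 8 of these fits.

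**Figure D1:**
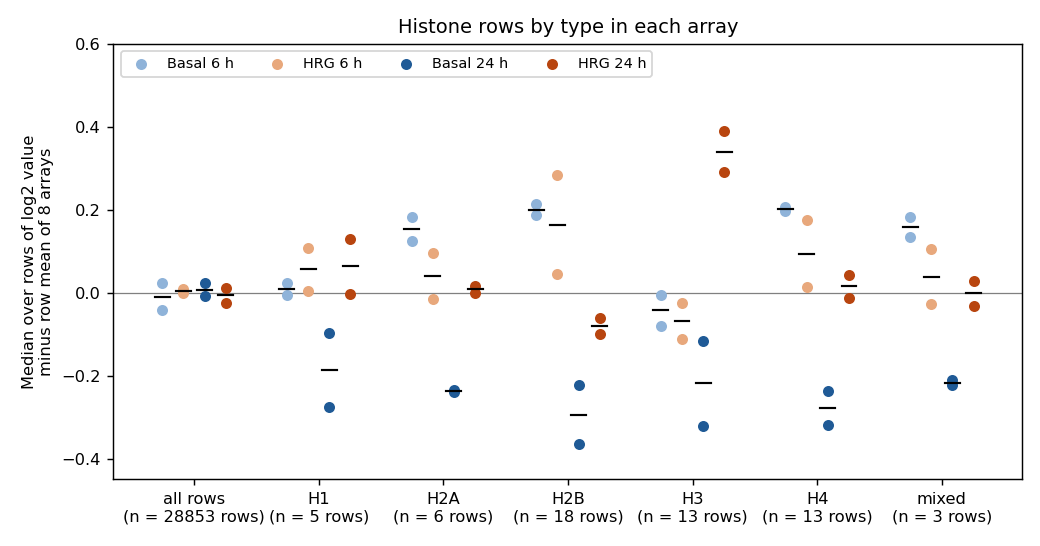
Median over the rows of each histone type of the log2 value minus that row's mean over the 8 arrays, with 1 point per array, a black bar at the mean of the 2 arrays, and all 28853 rows at the left. The mean of Basal 24 h is the lowest for every histone type, and HRG 24 h lies highest for H3 (0.39 and 0.29) while for H2B it lies below both 6 h groups on average (-0.06 and -0.10).

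At 6 h, no histone row passed the test for an effect of HRG. None of 58 rows was higher and none lower by limma. Over all rows, 0.156% were higher and 0.308% lower. An unadjusted limma p under 0.05 was found in 2 of the 58 rows and in 2767 of all 28853 rows. The median difference, HRG minus basal, was -0.04, against 0.02 for all rows. Of the 58 histone rows 45 were negative, as were 19 of the 31 with 1 symbol and 12770 of all 28853 rows. The sign of the histone median rested on 1 array: without replicate 2 of HRG 6 h it was 0.018. The HRG 6 h arrays differed from each other more in histone rows than elsewhere, with a median gap of 0.17 in histone rows and 0.10 over all rows, and replicate 2 was the higher in only 7 of 58.

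The largest difference at 6 h in each type stayed short of the threshold. H3c15 had -0.63 (SE 0.25, adjusted p = 0.45) and H2aw -0.31 (SE 0.09, adjusted p = 0.26). A row for H4c17 and H4c11 had -0.23 (SE 0.19, adjusted p = 0.80). H1f6 and H2bc1 had 0.16 and 0.15 (adjusted p = 0.84 and 0.73). The rows of H3c15, of H4c17 with H4c11, and of H1f6 are among the dim ones.

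At 24 h, 11 histone rows were higher with HRG than in untreated cells and none was lower. Of all rows, 1.66% were higher and 0.686% lower. The 11 comprise the 10 rows with the same 12 H3 symbols and the H2A gene H2ac15, which are 2 of the 40 distinct sets (1.62% of that table's rows were higher). The median of the 58 rows was 0.24, against -0.02 for all rows, and 52 were positive. Over all rows, 12842 of 28853 were positive. Both HRG arrays lay above both basal arrays in 47 of 58 histone rows, and in 18.7% of all rows.

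The mean of the 10 shared H3 rows was 11.16 and 10.95 in Basal 24 h and 11.67 and 11.57 in HRG 24 h. These HRG values also lie above all 4 arrays of 6 h, which ranged from 11.16 to 11.27. The difference at 24 h was 0.56 (SE 0.10, 1.48-fold, adjusted p = 0.019 for the averaged set), and the single rows gave 0.54 to 0.58 with adjusted p between 0.016 and 0.024. The H3 genes that have a row of their own did not show it: H3c4 had -0.02, H3c7 0.02 and H3c15 -0.27, none of which passed. All 3 are among the 12 symbols of the shared rows, and the shared rows do not say which H3 genes their values come from. The rows of H3c7 (means of 3.90 in Basal 24 h and 3.92 in HRG 24 h) and H3c15 are among the dim ones. A rise could be missed in such rows.

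H2ac15 read 10.27 and 10.26 in Basal 24 h and 10.85 and 10.79 in HRG 24 h. The HRG values are slightly above those of Basal 6 h (10.78 and 10.67), and the untreated 24 h cells were the lowest of the 4 groups. The difference was 0.55 (SE 0.10, 1.47-fold, adjusted p = 0.019).

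No H4 row passed at 24 h. All 13 were positive, with a median of 0.28 and adjusted p from 0.069 upward. In all 13 both HRG arrays lay above both basal arrays, as in 18.7% of all rows. These rows are 9 distinct sets, since 5 of them list the same 11 H4 symbols. H4c6 had the largest difference, 0.58 (SE 0.14, adjusted p = 0.069), with 8.14 and 7.84 in basal and 8.58 and 8.56 in HRG arrays. H4c4 read 12.53 and 12.42 with HRG, between its untreated values at 24 h and at 6 h, a difference of 0.36 (adjusted p = 0.16). H2B rows had a median of 0.21 and none of 18 passed. H2bc18 came nearest, with 7.69 and 7.78 in HRG arrays and a difference of 0.45 (SE 0.11, adjusted p = 0.068). H2ac4 had the largest difference of all 58, 0.62 (SE 0.17), but its row is dim and it did not pass (adjusted p = 0.11). In H1, H1f5 had 0.42 (SE 0.12, adjusted p = 0.14). H1f2 and H2bc4 went the other way, with -0.09 and -0.10, and their groups overlapped.

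The calls at 24 h rested on each of 3 arrays. No histone row passed without Basal 24 h replicate 2, without HRG 24 h replicate 1 or without HRG 24 h replicate 2, and H2ac15 was lost without Basal 24 h replicate 1 as well. The difference of the shared H3 rows ranged from 0.43 to 0.70 over the fits without 1 array, and that of H2ac15 from 0.52 to 0.58.

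**Figure D2:**
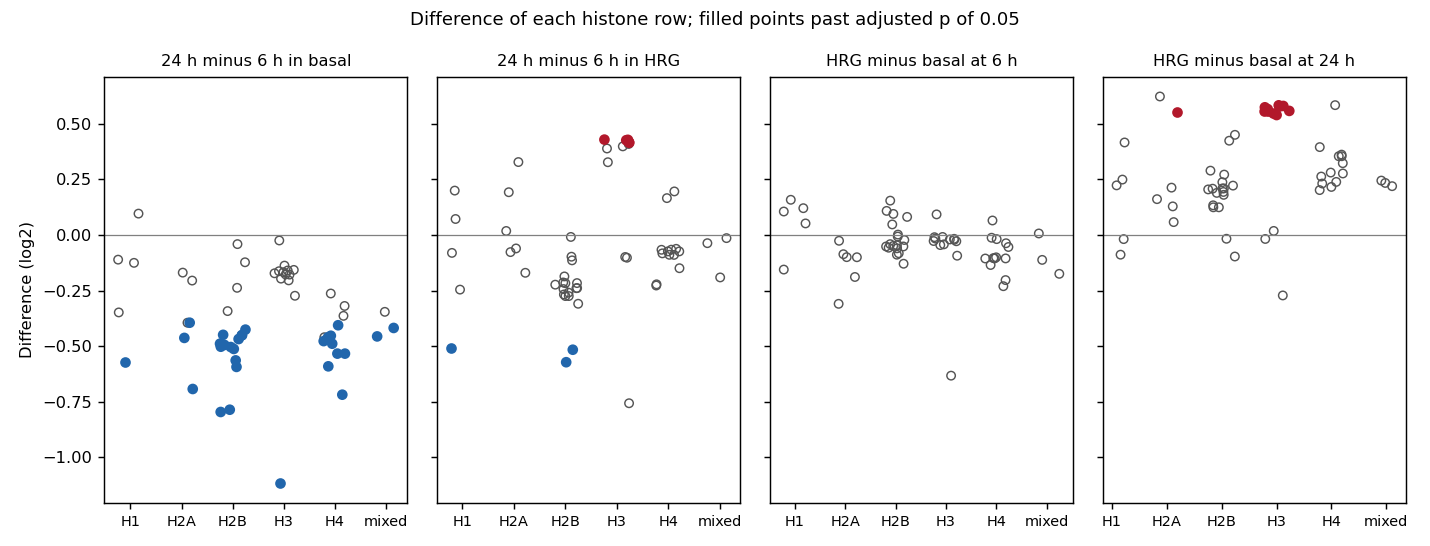
Difference on the log2 scale of each of the 58 histone rows, by type, in 4 comparisons; filled points passed an adjusted p of 0.05 (red higher, blue lower) and open points did not. The fall in untreated cells holds 30 filled points, mostly H2B and H4, the plot of HRG at 6 h holds none, and at 24 h the 10 shared H3 rows form a tight group between 0.54 and 0.58.

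With HRG present, few histone rows passed between 6 h and 24 h. Of the 58 rows, 6 were higher at 24 h than at 6 h, all of them shared H3 rows, and 3 were lower. Over all rows, 3.22% were higher and 1.88% lower. The median of the histone rows was -0.09, against -0.02 for all rows. The 10 shared H3 rows had differences of 0.33 to 0.43 with adjusted p from 0.04 to 0.099. The 3 H3 rows with 1 symbol were negative and did not pass, and those of H3c7 and H3c15 are dim. The average of the shared rows passed narrowly (0.41, SE 0.10, adjusted p = 0.0497), where 3.2% of all rows of the averaged table were higher.

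The rows that fell were H2bc4, H2bc8 and H1f2. H2bc4 read 12.51 and 12.31 in HRG 6 h and 11.79 and 11.89 in HRG 24 h, and fell by 0.57 (SE 0.13, adjusted p = 0.038). H2bc8 fell by 0.52 (SE 0.11, adjusted p = 0.028) and H1f2, which read 11.66 and 11.44 and then 11.03 and 11.05, by 0.51 (SE 0.12, adjusted p = 0.044). All 3 had also fallen in untreated cells, H2bc4 and H1f2 by nearly the same amount. They are 3 of the 30 rows that fell in untreated cells. Over all 58 rows the median was -0.41 in untreated cells and -0.09 with HRG. All 18 H2B rows were negative with HRG, with a median of -0.24, and so were 16028 of all 28853 rows.

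Rows of H4 and H2A did not pass in either direction with time under HRG. H4 rows had a median of -0.07 and H2A rows of -0.02, and the largest differences were -0.23 for H4c9 (adjusted p = 0.24) and 0.33 for H2ac4 (adjusted p = 0.36). H3c15 had -0.76, with an SE of 0.25, and did not pass (adjusted p = 0.14). Leaving out any 1 of the 4 HRG arrays left no histone row past the threshold in this comparison.

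**Figure D3:**
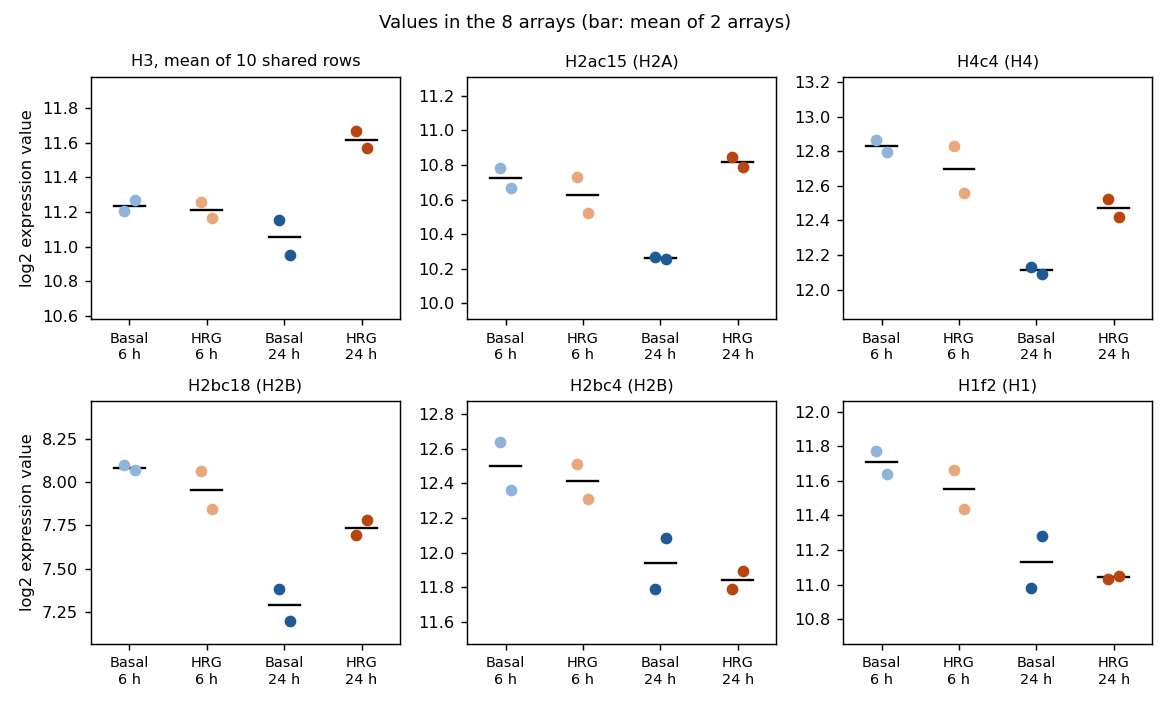
Log2 values in the 8 arrays of the averaged shared H3 rows and of H2ac15, H4c4, H2bc18, H2bc4 and H1f2; each point is an array, bars are means of 2 arrays, and each panel spans 1.4 log2 units. H3 is highest in HRG 24 h, H2ac15 is low only in Basal 24 h, H4c4 and H2bc18 with HRG lie between untreated 24 h and 6 h, and H2bc4 and H1f2 are low at 24 h in both treatments.

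Whether the effect of HRG differed between 24 h and 6 h was tested directly. No histone row passed this test in either direction by limma with a constant prior. Among all rows, 0.364% were higher and 0.218% lower. An unadjusted limma p under 0.05 was found in 26 of 58 histone rows and in 2833 of all 28853 rows. Of the 26, 10 list the same 12 H3 symbols and 5 the same 11 H4 symbols. The median of the 58 rows was 0.29, against -0.03 for all rows. Positive differences were found in 55 of the 58 and in 12626 of all 28853 rows. H2ac15 had 0.65 (SE 0.14) and the smallest adjusted p, 0.083. H4c6 had 0.79 (SE 0.20, adjusted p = 0.14), H2ac4 0.72 (adjusted p = 0.28) and H2bc18 0.58 (adjusted p = 0.16). H1f5 had 0.31 (adjusted p = 0.61). The shared H3 rows lay between 0.57 and 0.60, with adjusted p between 0.10 and 0.15. With a prior that follows the mean level and resists outliers (limma's trend and robust options), 16 rows passed, all higher. In that fit 1.21% of all rows were higher, and rows with the same symbols were not averaged. This comparison, the time courses and the HRG differences are built from the same 8 arrays, so their values are not separate evidence.

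Of 21 measured genes for histone processing and transcription, none passed in any of the 5 comparisons. Slbp read 9.66 and 9.49 in Basal 6 h and 9.24 and 9.31 in Basal 24 h, a difference of -0.30 that did not pass (SE 0.09, adjusted p = 0.10). With HRG at 24 h Slbp read 9.47 and 9.42, a difference from basal of 0.17 (adjusted p = 0.59). Npat had -0.17 over time in untreated cells (adjusted p = 0.64) and -0.07 with HRG at 24 h (adjusted p = 0.96). Of 24 histone chaperone and import genes, Ipo4, an importin that carries H3 and H4, was the only one to pass. It was lower at 24 h than at 6 h with HRG, by -0.42 (SE 0.10, adjusted p = 0.037), where 1.88% of all rows were lower. None of 12 measured histone genes that are expressed outside S phase passed in any comparison. H2ax had -0.19 and H2az1 -0.19 over time in untreated cells (adjusted p = 0.47 and 0.35), and 0.23 and 0.08 with HRG at 24 h (adjusted p = 0.53 and 0.89). No value is given for H3f3b and H1f0, which have no row with their symbol alone.

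Genes of DNA replication and division passed in small numbers. In untreated cells over time, 3 of 42 S phase genes fell, where 4.22% of all rows were lower: the licensing factor Cdt1 by 0.83 (SE 0.13, adjusted p = 0.0045), and the helicase subunits Mcm2 by 0.38 and Mcm7 by 0.34 (adjusted p = 0.036 and 0.045). The list's median was -0.06. With HRG at 24 h, 2 of 42 rose, where 1.66% of all rows were higher, and both had values in HRG arrays above those of all other groups. Rrm2, a subunit of the enzyme that makes deoxynucleotides, was 6.46 and 6.53 in basal and 7.17 and 7.43 in HRG arrays (0.81, SE 0.12, adjusted p = 0.0085). Ccna2, cyclin A, was 6.64 and 6.52 against 7.49 and 7.21 (0.78, SE 0.11, adjusted p = 0.0067). Both, again 2 of 42, also rose from 6 h to 24 h with HRG, where 3.22% of all rows were higher, by 0.51 and 0.67 (adjusted p = 0.044 and 0.0083). At 6 h the thymidylate synthase gene Tyms was lower with HRG by -0.55 (SE 0.10, adjusted p = 0.044), the only 1 of 42 to pass, where 0.308% of all rows were lower. Pcna, the sliding clamp of DNA polymerase, passed in no comparison (0.10 at 6 h and -0.08 at 24 h for HRG minus basal).

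Of 23 genes of G2 and mitosis, 3 rose with HRG at 24 h, where 1.66% of all rows were higher. All 23 differences were positive, with a median of 0.28, and 12842 of the 28853 differences over all rows were positive. Top2a rose by 0.72 (SE 0.12, adjusted p = 0.011), Plk1 by 0.69 (SE 0.14, adjusted p = 0.037) and Mki67 by 0.63 (SE 0.12, adjusted p = 0.024). Mki67, a nuclear protein of cycling cells, had also risen with time in untreated cells, from 8.37 and 8.15 to 9.04 and 8.77 (0.64, SE 0.12, adjusted p = 0.011). It was the only 1 of the 23 to pass in that comparison, in which 12 differences were positive and 11 negative, with a list median of 0.03. With HRG, 6 of 23 rose from 6 h to 24 h, against 3.22% of all rows, led by Mki67 (1.09), Top2a (0.74), Cks2 and Plk1 (both 0.61).

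Markers of B cells and mast cells had medians of the same sign as the histone rows in every comparison except time with HRG. In those comparisons T and NK cell markers, Alas2 and the histone genes expressed outside S phase also had that sign. The T and NK cell medians were -0.42 for HRG at 6 h and 0.09 at 24 h. They were 0.35 for the difference between the HRG effects and -0.008 over time in untreated cells. For HRG at 6 h the B cell and mast cell medians were -0.36 and -0.08, against -0.04 for the histone rows. For the difference between the HRG effects they were 0.87 and 0.64, against 0.29. In untreated cells 5 of 7 B cell markers fell from 6 h to 24 h, where 4.22% of all rows were lower, with a list median of -0.80. With HRG at 24 h 2 of 7, Cd79a (0.98) and Ms4a1 (0.80), rose, where 1.66% of all rows were higher, with a list median of 0.49. Over time with HRG, 1 of 7 rose and none fell, where 3.22% of all rows were higher and 1.88% lower. The list median was 0.19, against -0.09 for the histone rows. The mean level of the 7 markers was 8.67 and 8.64 in Basal 6 h, 8.29 and 8.28 in HRG 6 h, 8.15 and 7.75 in Basal 24 h and 8.65 and 8.40 in HRG 24 h. For HRG minus basal at 6 h, all 7 B cell markers and 45 of 58 histone rows were negative, and none of either passed. Over all rows, 12770 of 28853 were negative. Of 7 mast cell markers, 2 fell in untreated cells (Cma1 and Mcpt4), where 4.22% of all rows were lower. All 7 differences were negative, with a median of -0.40. With HRG at 24 h 2 rose (Cpa3 and Mcpt4), where 1.66% of all rows were higher. All 7 were positive, with a median of 0.50. Over time with HRG 2 of 7 rose, where 3.22% of all rows were higher, with a median of 0.10. The mean level of the mast cell markers was 9.49 and 9.31, 9.23 and 9.31, 8.86 and 9.11, and 9.66 and 9.33 in the same order of groups. Of 8 T and NK cell and 9 granulocyte markers, none passed over time in untreated cells or for HRG at 24 h. None of 7 mesothelial and fibroblast markers passed in those comparisons either. The erythroid gene Alas2 fell by 0.98 over time in untreated cells. Of 10 macrophage markers, 2 rose and 2 fell over time in untreated cells, where 2.53% of all rows were higher and 4.22% lower. With HRG at 24 h 2 of 10 rose, where 1.66% of all rows were higher, with a list median of 0.17. The part of these cell types in the histone results was not tested.

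**Figure D4:**
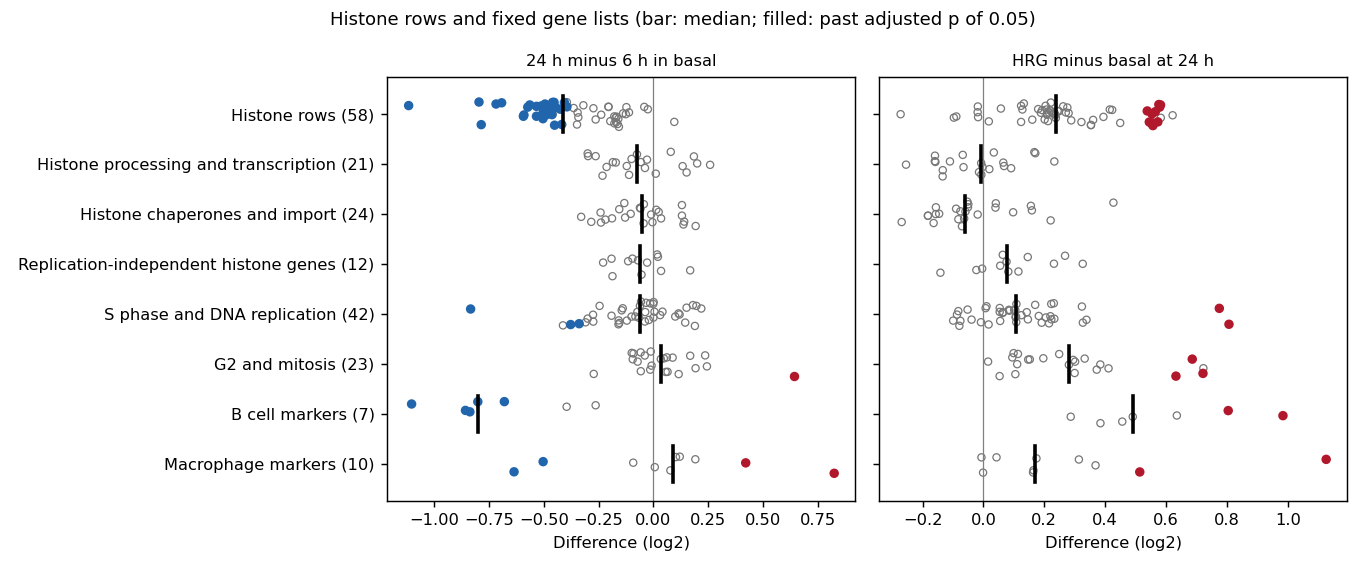
Differences on the log2 scale of the 58 histone rows and of the genes of 7 lists, over time in untreated cells (left) and for HRG minus basal at 24 h (right); black bars are medians and filled points passed an adjusted p of 0.05. Histone rows (median -0.41) and B cell markers (median -0.80) lie low on the left, where the genes of histone processing are centred near 0, and on the right histone rows (0.24), G2 and mitosis genes (0.28) and B cell markers (0.49) lie high.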

How the data were processed

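Total RNA was measured on Affymetrix arrays. The deposited log2 values were made by the authors with Affymetrix Expression Console, RMA and limma, per the submitters' processing notes. RMA corrects background, quantile-normalizes arrays and summarises the probes of a row, which compresses small differences of dim rows. No source used here gives versions or a genome build. Per the labels' protocols, 250 ng of RNA per sample was amplified with a whole-transcript kit. The number of arrays limits the precision.

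Rows were named through the platform annotation, which uses current symbols; older histone symbols were matched by gene ID in RefSeq (GRCm38.p6, names and promoters only). All 28853 rows and 8 arrays were fitted with limma 3.58.1 in R 4.3.3 (group means, eBayes) for 5 contrasts, with Benjamini-Hochberg adjustment; the script was tested on simulated data. Groups came from sample titles. For histone rows the text names up to 10 passing rows per direction and comparison and the largest of each type; for the 5 pathway lists, up to 4 passing genes per direction. The members and lists were chosen with earlier results of these data known.

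The alternatives were a replicate block, trend and robust eBayes, renewed quantile normalization, centring, filters on rows, fewer arrays, a minimum fold of 1.5 and leaving out each array. A crossed block and averaging of rows with the same symbols were added after seeing the data.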

Additional observations from a re-analysis of the deposited data

How the results depend on the processing

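No histone row chosen for naming changed sign under any alternative in a comparison where it had passed. Only the rows chosen for naming were compared in this way. Every count is limited by the 2 arrays of each group. For HRG at 24 h, 11 rows were higher; the count was 17 with trend and robust eBayes, 1 among the 31 single-symbol rows, 0 with a minimum fold of 1.5 and 2 with rows of the same symbols averaged. For the fall in untreated cells, 30 rows; 15 among single-symbol rows, 10 with only the arrays compared and 7 with the minimum fold. For time with HRG, 6 higher and 3 lower; higher 10 with trend and robust eBayes, 1 when averaged and 0 with renewed quantile normalization, single-symbol rows or the minimum fold; lower 1 with centring and 0 with the minimum fold. For the difference between the HRG effects, 0 rows were higher, and 16 with trend and robust eBayes. The share of all rows that were higher was 0.364% in the main fit and 1.21% with trend and robust eBayes. The median was 0.21 in single-symbol rows. For most other alternatives no share over all rows is given, so a larger count need not be particular to histone rows. The cause of these changes in count was not tested, except that fewer rows or arrays enter some. Leaving out each array gave 0 to 11 higher for HRG at 24 h (median 0.24 to 0.27), 6 to 27 lower in untreated cells (median -0.44 to -0.36), 0 to 8 higher and 0 to 4 lower with HRG over time (median -0.16 to -0.023), and medians of -0.12 to 0.018 for HRG at 6 h and 0.24 to 0.39 for the difference between HRG effects, with 0 calls in these last 2.

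The labels do not say that replicate numbers pair the arrays. Deviations of same-numbered arrays correlated at 0.167, 0.219 and 0.356 in the 3 pairs of groups without Basal 24 h and at -0.308, -0.227 and -0.16 in the 3 pairs with it, so pairing was not settled. With the replicate block, 12 rows were higher with HRG at 24 h, 28 lower in untreated cells, and 5 higher and 2 lower with HRG over time, with 0 for HRG at 6 h and for the difference between HRG effects. With Basal 24 h numbers crossed, a pairing added after seeing the data, the counts were 13, 34, 9, 4, 0 and 1.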
